A study of Homo sapiens with 8 samples.

Results

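The genes described here handle iron and heme in the established human cell line Panc 10.05, which comes from a pancreatic ductal adenocarcinoma, and they comprise 10 of the 58870 gene rows of the study's count table. They were chosen by symbol and role, with earlier results of these data known. The members are LCN2, HMOX1, FTH1, FTL, TFRC, SLC40A1, SLC11A2, NCOA4, IREB2 and ACO1. LCN2 and HMOX1 were listed because they had already been seen to be much lower in this comparison, so their difference is given below as a description, with no p-value, and their place in any count of called genes supports nothing. The study compared 4 control libraries with 4 libraries labelled as ELAPOR1 overexpression, all from Panc 10.05. ELAPOR1 encodes a membrane protein of endosomes and lysosomes. The labels do not say how ELAPOR1 was overexpressed, and they name no vector or promoter. They do not say whether the cells are a clone or a pool, or whether the replicates were separate cultures. The p-values therefore measure the spread between these libraries, which may be technical. RNA was sequenced in bulk, so fewer cells expressing a gene and less RNA per cell cannot be told apart.

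Most cells take up iron bound to transferrin. The transferrin receptor TFRC carries it into endosomes, the transporter SLC11A2 moves the released iron into the cytosol, ferritin (a shell of FTH1 and FTL chains) stores it, NCOA4 delivers ferritin to lysosomes for breakdown, and SLC40A1 (ferroportin) exports iron from the cell. The regulatory proteins ACO1 and IREB2 bind hairpins called iron-responsive elements in messenger RNAs, blocking translation when the hairpin lies in a 5′ UTR and stabilising the RNA when it lies in the 3′ UTR of TFRC. HMOX1 breaks down heme and frees its iron, and LCN2 (lipocalin 2) is a secreted protein that binds iron-carrying siderophores and is known as an inflammation-induced protein of epithelia and of pancreatic cancer.

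Library totals ran from 16558600 to 18128757 counts in control and from 13765509 to 17258166 in ELAPOR1 libraries. ELAPOR1 itself (listed as KIAA1324) had 1 to 4 counts in the control libraries and 5910 to 7368 in the ELAPOR1 libraries, as labelled. All 6 epithelial markers examined (KRT7, KRT8, KRT18, KRT19, EPCAM and CDH1) were above 5 CPM. Their summed level was 11929 to 13196 CPM in control and 11159 to 11510 CPM in ELAPOR1 libraries. The 3 acinar markers had no count in any library. None of the 5 fibroblast markers reached 5 CPM, 2 of them (COL1A2 and DCN) were at 0, and their sum was 2.95 to 4.32 CPM in control and 2.71 to 3.19 CPM in ELAPOR1 libraries, nearly all from COL1A1. None of the 3 endothelial markers reached 5 CPM, CDH5 was at 0, and their sum, nearly all VWF, was 1.61 to 1.95 CPM in control and 0.576 to 0.865 CPM in ELAPOR1 libraries. Of the 4 leukocyte markers, CD3E was at 0, PTPRC had at most 1 count and CD14 at most 11, while CD68, a lysosomal protein gene, was at 84.4 ± 2.49 CPM in control and 75.7 ± 2.61 CPM in ELAPOR1 libraries. The part of these other cell type markers in the results was not tested. CPM is the count after division by the scaled library total. Means are given ± SD over the 4 libraries of a group, and log2 ratios are ELAPOR1 over control with their standard error (SE).

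The hairpins that the iron regulatory proteins read are shown first because they group the members by sequence. The members were chosen for iron handling, which these proteins regulate, so a high share of matches among them is no separate result. The letters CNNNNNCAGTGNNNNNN, with the 5 bases on each side of the 6-base loop able to pair (G with T allowed), were searched on the sense strand of GENCODE 29 transcripts. Of 19684 protein-coding genes, 291 (1.48%) held a match, and 4 of the 10 members did: FTH1, FTL and SLC40A1 in the 5′ UTR and TFRC at 4 places in the 3′ UTR. The 27-base sites are printed 5′ to 3′ as DNA on the gene's strand, with the loop in capitals.
FTH1: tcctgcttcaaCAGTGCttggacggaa
FTL: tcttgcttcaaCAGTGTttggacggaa
SLC40A1: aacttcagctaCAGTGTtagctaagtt
TFRC site 1: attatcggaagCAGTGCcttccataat
TFRC site 2: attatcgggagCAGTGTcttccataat
TFRC site 3: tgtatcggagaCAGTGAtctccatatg
TFRC site 4: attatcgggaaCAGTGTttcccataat
In GRCh38 the sites lie at chr11:61967575-61967601 (FTH1, minus strand), chr19:48965336-48965362 (FTL, plus strand) and chr2:189580662-189580688 (SLC40A1, minus strand). The TFRC sites, in the order printed, lie on the minus strand at chr3:196050980-196051006, chr3:196050576-196050602, chr3:196050511-196050537 and chr3:196050464-196050490. The 2 ferritin sites share 25 of 27 bases. A match describes letters only, and no match says only that these letters were not found.

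The clearest differences were in LCN2 and HMOX1, both lower in the ELAPOR1 libraries. LCN2 (ENSG00000148346.12, GRCh38 chromosome 9, 128149071 to 128153455, plus strand) stood at 60.4, 61.8, 63.5 and 69.3 CPM in the 4 control libraries and at 23.2, 25.5, 25.2 and 24.5 CPM in the 4 ELAPOR1 libraries. Every ELAPOR1 library lay well below every control library. The means were 63.7 ± 3.89 and 24.6 ± 1.02 CPM, which is 2.59-fold lower, or a log2 ratio of -1.38 (SE 0.057).

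HMOX1 (ENSG00000100292.17, chromosome 22, 35380361 to 35394214, plus strand), the stress-inducible heme oxygenase, stood at 21.3, 19.4, 17.98 and 18.3 CPM in control libraries. In ELAPOR1 libraries it stood at 9.02, 9.65, 9.36 and 8.999 CPM. The groups did not overlap, and the mean went from 19.2 ± 1.496 to 9.26 ± 0.308 CPM, 2.08-fold lower, with a log2 ratio of -1.06 (SE 0.087). HMOX2, the constitutive heme oxygenase, was at 63.9 ± 3.17 CPM in control and 65.5 ± 1.30 CPM in ELAPOR1 libraries, a log2 ratio of 0.04 (SE 0.045) that did not pass the test (edgeR adjusted p = 0.545). Among all 13860 tested genes, the size of the log2 ratio was smaller than that of LCN2 in 99.0% and smaller than that of HMOX1 in 97.9%. Both genes were listed for their fall, so a high rank follows from the choice and is no evidence for them.

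The stretch just before the RefSeq start of LCN2 is shown because several factors known to bind there were measured in the same libraries. It holds 176 bases, chr9:128149265-128149440 on the plus strand of GRCh38.p14 (RefSeq), and runs from 188 to 13 bases before that start. In GENCODE 29 it lies inside the annotated LCN2 gene, after an upstream exon and before the next annotated exon start. Only this part of the 250 bases searched is printed. Capitals mark matches to the motifs searched.
LCN2: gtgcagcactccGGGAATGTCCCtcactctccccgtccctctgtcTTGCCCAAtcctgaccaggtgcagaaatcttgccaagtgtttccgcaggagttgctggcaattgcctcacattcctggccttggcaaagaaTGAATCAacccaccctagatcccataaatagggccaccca
Both strands of the 250 bases before each RefSeq start were searched. GGGNNNNNCC, a loose NF-kappaB pattern, matched LCN2 on each strand at overlapping places and is present in 54.4% of the 35116 windows in the table. TTNNGNAA, a loose C/EBP pattern, matched once and is present in 33.2%. That match is on the minus strand, so the capitals printed above are its reverse complement. TGANTCA, the AP-1 pattern, reads the same on both strands, matched at 1 place and is present in 6.57%. TGACNNNGC, the core of the antioxidant response element, had no match in LCN2 and is present in 10.9%. The promoter table held 8 of the 10 members.

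**Figure D1:**
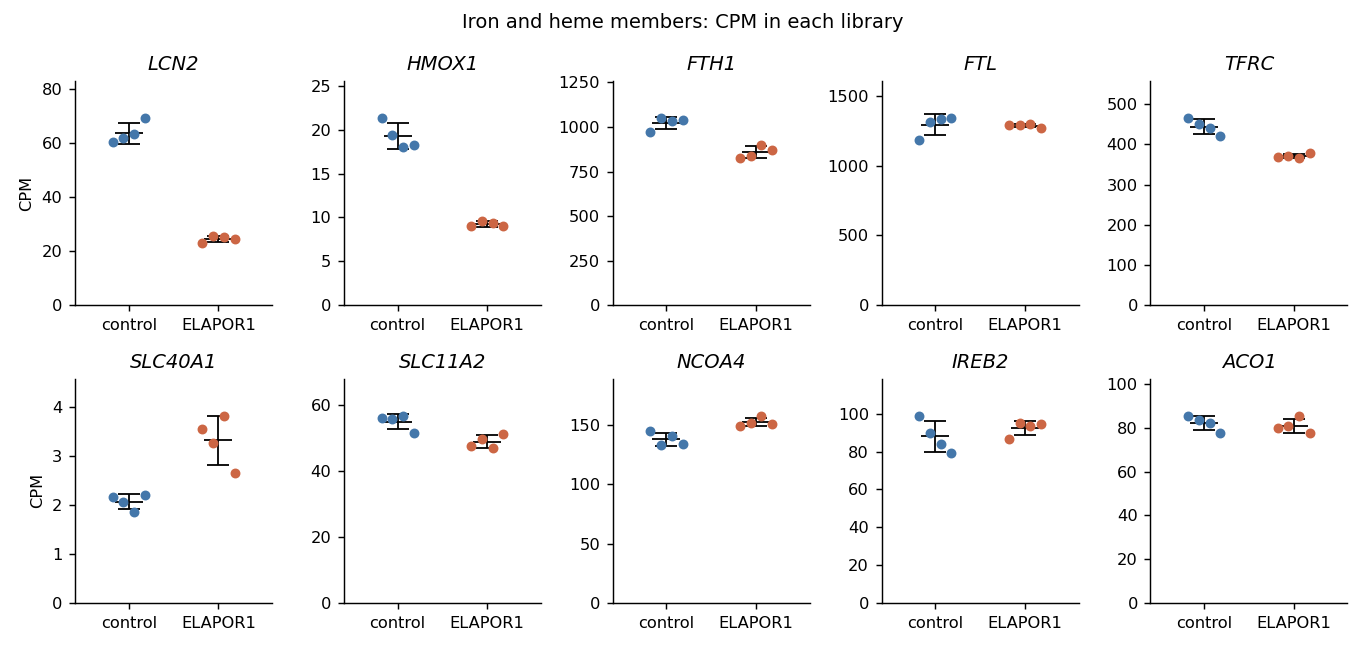
CPM of the 10 members in each library (y axes start at 0), with control libraries in blue and ELAPOR1 libraries in orange; points are libraries, and black bars are the mean and SD over 4 libraries. LCN2 and HMOX1 separate most widely, while the groups overlap for FTL, IREB2 and ACO1.

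Of the 10 members, all of which passed the filter on low counts, 7 were called (edgeR, adjusted p-value below 0.05), 5 lower and 2 higher, and in the same 7 no ELAPOR1 library reached into the control range. These counts include LCN2 and HMOX1, which were listed for their fall, so nothing is read from them. Over all 13860 tested genes, 44.7% were called, 22.1% lower and 22.6% higher, and the groups did not overlap for 39.2%. Of the other 8 members, 5 were called, 3 lower and 2 higher. These 8 were listed by role, but with earlier results known, so they are not an unselected set. The median log2 ratio was -0.0149 over these 8, -0.0965 with LCN2 and HMOX1 included, and 0.000875 over all tested genes.

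RNA of the ferritin chains was lower for FTH1, while FTL did not pass the test. FTH1 (ENSG00000167996.16, chromosome 11, 61959718 to 61967660, minus strand), the heavy chain that oxidises iron for storage, was at 973, 1048, 1031 and 1039 CPM in control libraries. It was at 826, 838, 899 and 873 CPM in ELAPOR1 libraries, each below the lowest control library. It fell from a mean of 1023 ± 34.0 to 859 ± 33.5 CPM, a log2 ratio of -0.25 ± 0.030 (SE; edgeR, adjusted p = 1.4e-08).

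FTL (ENSG00000087086.15, chromosome 19, 48965301 to 48966878, plus strand), the light chain, was at 1184, 1311, 1337 and 1337 CPM in control libraries and at 1292, 1292, 1297 and 1265 CPM in ELAPOR1 libraries. All 4 ELAPOR1 values lay inside the control range. The means were 1292 ± 73.4 and 1286 ± 14.3 CPM, with a log2 ratio of -0.01 (SE 0.031), and the test was not passed (edgeR adjusted p = 0.888). Control replicate 1 was the low library, and without it the log2 ratio of FTL was -0.05 (edgeR adjusted p = 0.0383, and 0.0383 to 1 over all alternatives), lower in the ELAPOR1 libraries. That single library thus decides on which side of the threshold FTL falls.

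Ferritin has many processed pseudogenes, whose reads RSEM could divide with the parent gene. The 25 rows named as FTH1 pseudogenes took 0.185% to 0.281% of the FTH1 total in a library and the 16 rows named as FTL pseudogenes took 0.0592% to 0.126% of the FTL total. With their counts added to the parent genes, the log2 ratios were -0.25 for FTH1 and -0.0067 for FTL. FTH1 also shares 1267 exonic bases with BEST1 on the opposite strand. The ratio of FTH1 to FTL, each scaled by its length, was 0.343 ± 0.009996 in control and 0.289 ± 0.0120 in ELAPOR1 libraries, and the ranges, 0.334 to 0.355 and 0.277 to 0.300, did not overlap.

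NCOA4 (ENSG00000266412.5, chromosome 10, 46005088 to 46030714, minus strand), the receptor that takes ferritin to the lysosome, was at 144, 133, 141 and 134 CPM in control libraries. It was at 149, 152, 157 and 151 CPM in ELAPOR1 libraries, all above the highest control library. It rose by a small amount, from 138 ± 5.61 to 152 ± 3.54 CPM, a log2 ratio of 0.14 ± 0.036 (SE; edgeR, adjusted p = 1.3e-03).

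RNA of both uptake genes was lower. TFRC (ENSG00000072274.13, chromosome 3, 196027183 to 196082189, minus strand) was at 464, 452, 440 and 420 CPM in control libraries and at 368, 370, 367 and 378 CPM in ELAPOR1 libraries. The ELAPOR1 libraries lay close together and below every control library. TFRC fell from 444 ± 18.7 to 371 ± 4.82 CPM, a log2 ratio of -0.26 ± 0.030 (SE; edgeR, adjusted p = 1.1e-08).

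SLC11A2 (ENSG00000110911.15, chromosome 12, 50979401 to 51028566, minus strand) was at 56.2, 55.8, 56.7 and 51.6 CPM in control libraries and at 47.6, 49.8, 47.0 and 51.2 CPM in ELAPOR1 libraries. The groups did not overlap, but control replicate 4 and ELAPOR1 replicate 4 were nearly level. SLC11A2 fell from 55.0 ± 2.35 to 48.9 ± 1.97 CPM, a log2 ratio of -0.17 ± 0.050 (SE; edgeR, adjusted p = 5.3e-03).

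The exporter SLC40A1 (ENSG00000138449.10, chromosome 2, 189560579 to 189583758, minus strand) was the least abundant member. Its counts were 39, 35, 31 and 36 in control libraries and 58, 49, 53 and 46 in ELAPOR1 libraries, or 2.16, 2.07, 1.86 and 2.19 against 3.56, 3.26, 3.82 and 2.65 CPM. Every ELAPOR1 library was above every control library. SLC40A1 rose from 2.07 ± 0.152 to 3.32 ± 0.500 CPM, a log2 ratio of 0.67 ± 0.20 (SE; edgeR, adjusted p = 6.2e-03). The few counts leave its size uncertain, and leaving out each library in turn gave 0.60 to 0.77.

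The genes of the iron regulatory proteins did not pass the test. ACO1 (ENSG00000122729.19, chromosome 9, 32384603 to 32454769, plus strand), which is a cytosolic aconitase when it carries an iron-sulfur cluster, was at 85.4, 83.5, 82.3 and 77.6 CPM in control and 80.1, 81.0, 85.2 and 77.7 CPM in ELAPOR1 libraries. The values of the groups were intermixed, and the log2 ratio was -0.02 ± 0.043 (SE; edgeR, adjusted p = 0.692). IREB2 (ENSG00000136381.13, chromosome 15, 78437431 to 78501456, plus strand), which is degraded when iron is plentiful, was at 98.7, 89.9, 83.8 and 79.3 CPM in control and 86.7, 95.1, 93.3 and 94.4 CPM in ELAPOR1 libraries. The control libraries spanned the whole ELAPOR1 range, and the log2 ratio was 0.07 ± 0.053 (SE; edgeR, adjusted p = 0.311). Control replicate 1 was the highest of all 8 libraries, and without it the log2 ratio of IREB2 was 0.12 (edgeR adjusted p = 0.0158, and 0.0158 to 1 over all alternatives), higher in the ELAPOR1 libraries.

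Of the members with a match to the hairpin pattern, FTH1 and TFRC were lower, SLC40A1 was higher and FTL did not pass the test. The other members, SLC11A2 among them, had no match, which does not show that they lack such a hairpin. Members with the match in the 5′ UTR thus did not share a direction at the RNA level. These data hold no measure of translation.

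Levels of different genes were compared after scaling by the length of their annotated exons (length-scaled level, counts per kilobase, scaled to the library total). In control libraries the order was FTL at 5399 ± 251, FTH1 at 1848 ± 39.9, TFRC at 207 ± 10.7, LCN2 at 146 ± 7.87, NCOA4 at 124 ± 6.55 and ACO1 at 39.9 ± 1.99. IREB2 at 29.9 ± 3.18 and HMOX1 at 29.4 ± 2.60 followed with overlapping ranges, then SLC11A2 at 19.9 ± 0.995 and SLC40A1 at 1.75 ± 0.132. Apart from IREB2 and HMOX1, no neighbours in this order overlapped. In ELAPOR1 libraries LCN2 stood at 57.6 ± 2.55, below NCOA4 at 140 ± 3.43, and HMOX1 stood at 14.4 ± 0.518, below SLC11A2 at 18.04 ± 0.750. The other members kept their rank, and no neighbours overlapped. Exons of all annotated transcripts were counted in the length, which understates genes with long rare transcripts.

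**Figure D2:**
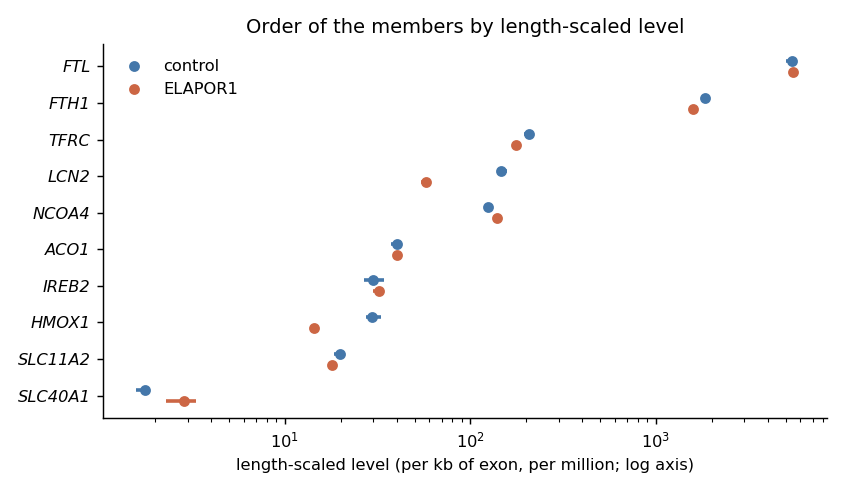
Length-scaled level (log axis, per kilobase of exon and scaled to the library total) of the 10 members, in order of the control mean, with control in blue and ELAPOR1 in orange; points are means and lines span the 4 libraries. LCN2 drops from 146 to 57.6, below NCOA4, and HMOX1 from 29.4 to 14.4, below SLC11A2.

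The other iron and heme genes were examined in 10 lists by role, 91 genes in all, of which 75 passed the filter. The lists were also drawn up with earlier results of these data known. Of these 75, edgeR called 32, with 15 of them higher and 17 lower, a share of 42.7% against 44.7% of all tested genes. Their median log2 ratio was 0.00826. The share of calls among these genes was therefore close to that of the whole transcriptome, and the lists as a whole had no common direction.

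**Figure D3:**
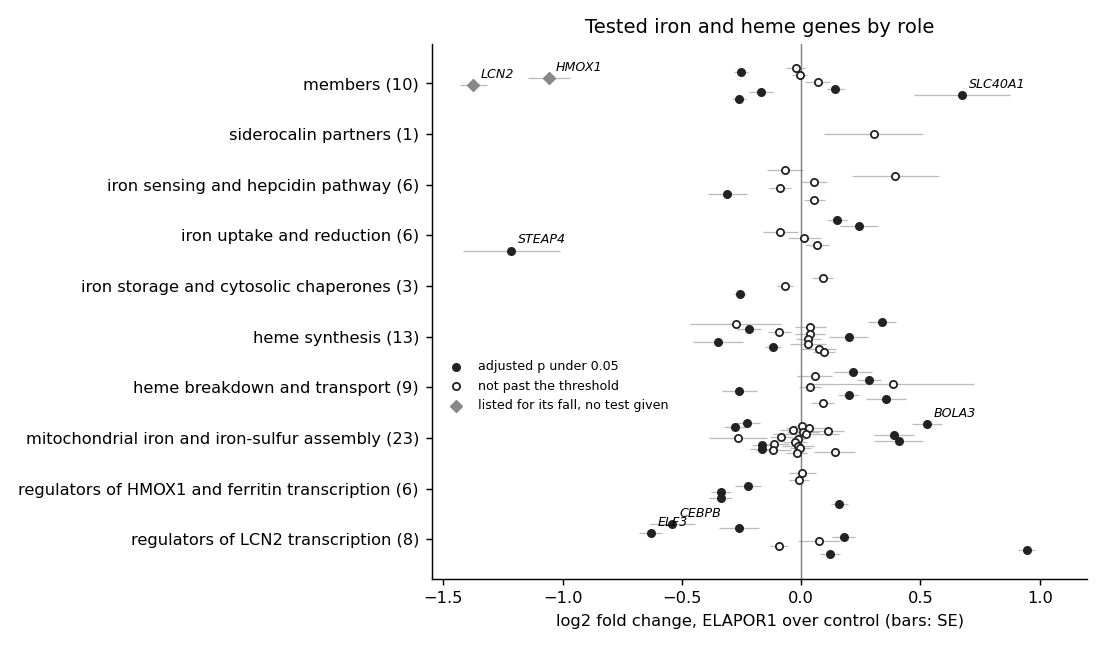
Log2 ratio (ELAPOR1 over control) of every tested iron and heme gene by role, with the number tested after each role; bars are SE, filled circles passed the edgeR test and open circles did not, and grey diamonds are LCN2 and HMOX1. Most genes lie within 0.5 of 0, with LCN2, STEAP4 and HMOX1 farthest to the left and SLC40A1 the farthest to the right among the members.

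Among genes of iron uptake and reduction, 3 of 6 tested were called (50%, against 44.7% of all tested genes), 2 higher and 1 lower. STEAP4, a metalloreductase induced by inflammation, was at 9.26, 7.43, 9.23 and 7.80 CPM in control libraries and at 5.03, 2.33, 4.82 and 2.42 CPM in ELAPOR1 libraries. The ELAPOR1 libraries split into a higher and a lower pair, all below the control libraries. STEAP4 fell from 8.43 ± 0.950 to 3.65 ± 1.48 CPM, a log2 ratio of -1.22 ± 0.20 (SE; edgeR, adjusted p = 1.1e-04). The zinc and iron importers SLC39A14 (log2 ratio 0.15, SE 0.042, edgeR adjusted p = 4.2e-03) and SLC39A8 (0.24, SE 0.080, adjusted p = 0.0139, with overlapping groups) rose. The call of SLC39A8 was lost without control replicate 2 (edgeR adjusted p = 0.0956) and without ELAPOR1 replicate 1 (0.0531), and it ranged from 5.3e-03 to 1 over all alternatives. STEAP3, the reductase of transferrin-bound iron in endosomes, was at 51.9 ± 1.93 CPM in control and 54.4 ± 2.43 CPM in ELAPOR1 libraries (edgeR adjusted p = 0.283).

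The partners of secreted LCN2 were hardly expressed. SLC22A17, a receptor for LCN2, had no count in any library, and LRP2, another receptor, and MMP9, a protease that LCN2 binds, had at most 2 counts and 1 count. BDH2, linked to the synthesis of a mammalian siderophore, was at 2.501 ± 0.341 CPM in control and 3.07 ± 0.756 CPM in ELAPOR1 libraries (edgeR adjusted p = 0.247). Of the exporter's partner oxidases, HEPH had no count and HEPHL1 and CP had at most 2 counts and 1 count, so changes in them were not detectable at this depth.

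In iron sensing and the hepcidin pathway, 1 of 6 tested genes was called (16.7%, against 44.7% of all tested genes). HFE, which regulates the transferrin receptor and hepcidin, fell from 17.01 ± 0.279 to 13.7 ± 1.09 CPM, a log2 ratio of -0.31 ± 0.082 (SE; edgeR, adjusted p = 2.2e-03). FBXL5, the ubiquitin ligase subunit that removes IREB2 when iron is present, had a log2 ratio of -0.09 (edgeR adjusted p = 0.121). HAMP, which encodes hepcidin, had at most 1 count. In storage, PCBP2, an iron chaperone that also binds RNA, fell from 769 ± 10.2 to 644 ± 8.12 CPM, a log2 ratio of -0.26 ± 0.026 (SE; edgeR, adjusted p = 7.7e-10). That was the call in 1 of 3 tested storage genes (33.3%, against 44.7% of all tested genes).

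In heme synthesis, 5 of 13 tested genes were called (38.5%, against 44.7% of all tested genes), 2 higher and 3 lower. ALAS1, the rate-limiting enzyme outside red cells, fell from 56.1 ± 1.598 to 48.3 ± 2.997 CPM, a log2 ratio of -0.22 ± 0.050 (SE; edgeR, adjusted p = 5.5e-04), and PPOX fell by 0.35 in log2 units (SE 0.10, adjusted p = 7.0e-03). ABCB10, a mitochondrial transporter needed for heme synthesis, rose by 0.34 ± 0.060 (SE; edgeR, adjusted p = 1.8e-05). FECH, which inserts iron into heme, rose by 0.20 ± 0.083 (SE; edgeR, adjusted p = 0.0484), a call that was lost under 13 of 18 alternatives (adjusted p = 0.0285 to 1). Those that ended it include leaving out any single control library and leaving out ELAPOR1 replicate 1, 2 or 4.

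In heme breakdown and transport, 5 of 9 tested genes were called (55.6%, against 44.7% of all tested genes), 4 higher and 1 lower. FLVCR1, a heme exporter, rose from 46.4 ± 1.08 to 56.6 ± 2.96 CPM, a log2 ratio of 0.28 ± 0.050 (SE; edgeR, adjusted p = 1.5e-05). SLC46A1, a folate transporter that also carries heme, rose by 0.36 ± 0.085 (SE; edgeR, adjusted p = 8.6e-04). LRP1, the receptor for the heme-hemopexin complex, changed by -0.26 ± 0.073 (SE; edgeR, adjusted p = 3.8e-03).

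Mitochondrial iron and iron-sulfur assembly genes numbered 23 tested. Of these, 7 were called (30.4%, against 44.7% of all tested genes), 3 higher and 4 lower. BOLA3 (log2 ratio 0.53, SE 0.064, edgeR adjusted p = 2.2e-08) and IBA57 (0.41, SE 0.10, adjusted p = 1.3e-03, with overlapping groups), which act late in cluster assembly, rose. CIAO2B of the cytosolic machinery fell (-0.28, SE 0.049, edgeR adjusted p = 2.1e-05). ISCU, the assembly scaffold, and NFS1, which supplies the sulfur, were also called lower (log2 ratios -0.16 and -0.16).

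Genes of factors that regulate HMOX1 and ferritin transcription did not move as one. NFE2L2 (NRF2), the activator, was at 134 ± 3.96 CPM in control and rose to 150 ± 5.79 CPM in ELAPOR1 libraries, a log2 ratio of 0.16 ± 0.036 (SE; edgeR, adjusted p = 4.7e-04). The small MAF genes, whose proteins pair with both NRF2 and the repressor BACH1, fell: MAFG by 0.34 ± 0.041 in log2 units (SE; edgeR, adjusted p = 2.8e-08) and MAFK by 0.34 (SE 0.048, adjusted p = 8.7e-07). MAFF was lower too, so 4 of the 6 genes were called (66.7%, against 44.7% of all tested genes), 1 higher and 3 lower. BACH1 (log2 ratio 0.00, edgeR adjusted p = 0.963) and KEAP1 (-0.01, adjusted p = 0.864) did not pass the test.

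Of 8 genes for regulators of LCN2 transcription, 6 were called (75%, against 44.7% of all tested genes), 3 higher and 3 lower. ELF3, an epithelial factor, fell from 86.5 ± 5.62 to 55.8 ± 2.55 CPM, a log2 ratio of -0.63 ± 0.048 (SE; edgeR, adjusted p = 7.4e-13). CEBPB fell from 20.6 ± 2.32 to 14.1 ± 1.96 CPM (log2 ratio -0.54, SE 0.094, edgeR adjusted p = 2.0e-05). NFKB1 rose by 0.18 (SE 0.048, edgeR adjusted p = 2.4e-03). RELA (-0.09, edgeR adjusted p = 0.0539) and NFKBIZ (0.07, adjusted p = 0.516), which encode a NF-kappaB subunit and a co-activator used at LCN2, did not pass the test. Their part in the level of LCN2 was not tested.

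**Figure D4:**
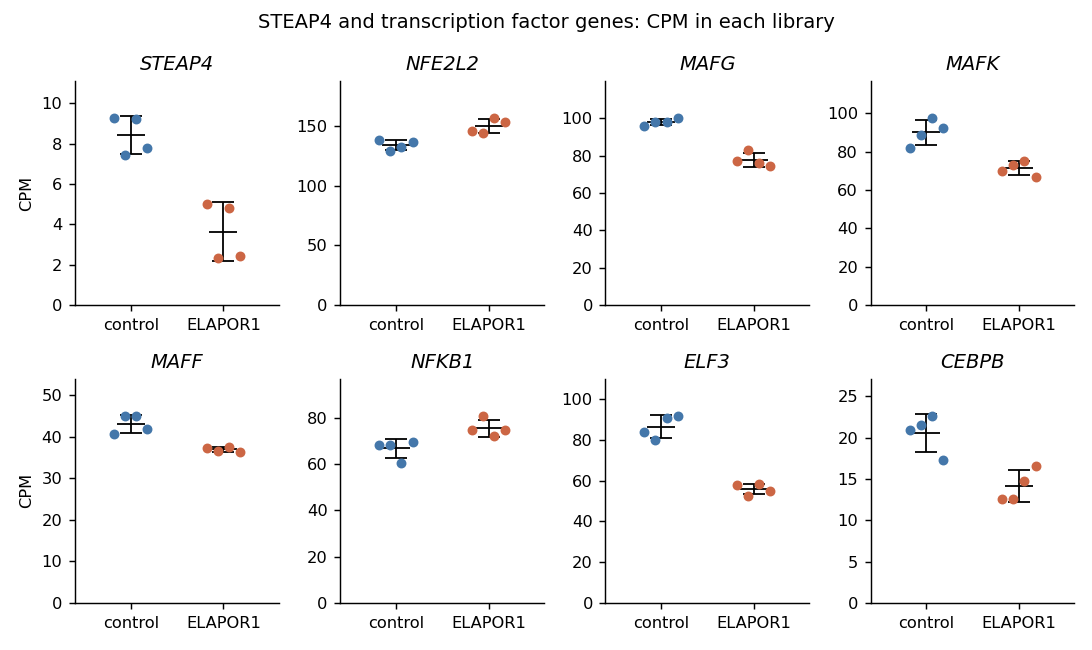
CPM of STEAP4 and 7 transcription factor genes in each library (y axes start at 0), with control in blue and ELAPOR1 in orange; points are libraries, and black bars are the mean and SD over 4 libraries. NFE2L2 and NFKB1 are higher and STEAP4, MAFG, MAFK, MAFF, ELF3 and CEBPB lower in ELAPOR1 libraries, with no overlap between groups in any panel. Only genes that passed the test were drawn, so the lack of overlap owes much to that choice. The groups did not overlap for 39.2% of all tested genes.

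Several of these genes share exonic bases with an annotated neighbour, and use of strand by the counting is not given in the sources used here. With neighbours on the opposite strand they include STEAP4 (antisense AC003991.1, 782 bases), PCBP2 (MAP3K12, 1494), PPOX (B4GALT3, 1118), SLC46A1 (SARM1, 4421), MAFK (TMEM184A, 809) and ELF3 (ELF3-AS1, 664). Overlaps on the same strand, which counting by strand would not separate, include NFE2L2 (AC019080.1, 1054 bases), PCBP2 (AC023509.1, 1097) and ELF3 (AL691482.3, 664). The values of these genes are uncertain to that extent.

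The genes most like LCN2 across the 8 libraries, by Pearson's r of log2(CPM + 1) among the 10703 genes averaging 5 CPM or more, were GAS5 (0.998), RPL4 (0.998) and HSD17B7 (0.997). Those most like HMOX1 were PLCB4 (0.998), MCAM (0.996) and AIG1 (0.995). The difference between the groups dominates these values. All 6 genes were lower in ELAPOR1 libraries, with MCAM going from 24.1 ± 0.841 to 12.4 ± 0.335 CPM and GAS5 from 305 ± 7.45 to 194 ± 3.14 CPM.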

How the data were processed

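The authors deposited 1 table of RSEM expected counts (estimated counts per gene, 58870 rows, 8 columns, not scaled). cutadapt, STAR, RSEM, DESeq2 and the build hg38 are named in the submitters' processing notes, without versions or settings. Values were rounded to whole numbers. In edgeR 4.0.16 (R 4.3.3), filterByExpr chose the genes, TMM scaled the libraries, and the robust quasi-likelihood test (two-sided, no covariate) contrasted ELAPOR1 against control, with Benjamini-Hochberg adjustment over 13860 genes. SE is the size of the log2 fold change divided by the square root of F. Coordinates, exon lengths and transcripts are from GENCODE 29 on GRCh38, and promoters from RefSeq. The members and lists were chosen with earlier results of these data known. Genes named outside the members are, per list, up to 2 called rises and 2 called falls of largest size averaging 5 CPM or more, and the 3 genes most like LCN2 and HMOX1; HMOX2, BDH2, STEAP3, FBXL5, ISCU, NFS1, MAFF, BACH1, KEAP1, RELA, NFKBIZ and genes near 0 were added after their values were seen. Some genes of the lists are counted but not reported by name here. In simulated counts for 13860 genes, 86.2% of 65 genes changed 1.5-fold and 98.5% of 67 changed 1 on the log2 scale were called. Of 13527 unchanged genes, 0.103% were called. The simulation gave every gene the same spread (coefficient of variation 0.0401) and changed few genes, whereas 44.7% were called in the data. Its shares are therefore not rates for this comparison. Alternatives used DESeq2 1.42.0 and limma 3.58.1 (voom). Plots used matplotlib 3.10.9.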

Additional observations from a re-analysis of the deposited data

Results flagged for a closer look

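In 5 of 80 groups of 4 libraries (the CPM of each named gene in each condition), a single library lay apart from the others, where chance gives about 1 in 20, or 4. Control replicate 1 held FTL at 1184 CPM, while its 3 fellow libraries lay from 1311 to 1337 CPM. FTL was also at 1265 CPM in ELAPOR1 replicate 4, with the others between 1292 and 1297 CPM. SLC39A8 was at 19.69 CPM in ELAPOR1 replicate 2, with the others between 22.7 and 23.3 CPM. IBA57 was at 10.61 CPM in ELAPOR1 replicate 4, with the others between 13.1 and 13.4 CPM. NFKB1 was at 60.59 CPM in control replicate 3, with the others between 68.4 and 69.7 CPM.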

How the results depend on the processing

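The number of members called was 7 under every alternative except the test against a 1.5-fold change and leaving out control replicate 1. The test against a 1.5-fold change (glmTreat) called 2 members (0 higher, 2 lower), which were LCN2 and HMOX1, listed for their fall, so that this count is no evidence for them. It also called 2 of the other iron and heme genes (1 higher and 1 lower, the latter STEAP4). Leaving out each library in turn gave 7 to 9 members (2 to 3 higher, 5 to 6 lower), the 9 being without control replicate 1, and 29 to 36 other genes (12 to 15 higher, 17 to 21 lower). The log2 fold changes of LCN2 (-1.41 to -1.33) and HMOX1 (-1.09 to -1.01) kept their direction under all 18 alternatives. FTL, near 0, changed sign with total count scaling (0.0151) and ranged from -0.0522 to 0.0105 over left-out libraries, with 6e-04, 0.0098, 0.0105 and 0.002 without control replicates 2, 3 and 4 and ELAPOR1 replicate 4. The labels number the replicates alike in each group but do not say whether same-numbered libraries belong together. Same-numbered libraries did not deviate together (r from -0.112 to 0.0355), which cannot settle whether they were paired. With the replicate block, 7 members and 31 other genes were called. With at least 10 counts in every library ELAPOR1 was left out and gave no value. No scaling moved the median of all genes by more than 0.1 on the log2 scale. Depth limits SLC40A1 and the genes near 0 counts most.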
